A study of Mus musculus with 18 samples.

Results

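Polycomb repressive complexes silence developmental genes, and 9 genes that encode their subunits were followed here, of 24505 genes in the deposited tables. They were Ezh2, Ezh1, Eed, Suz12 and Jarid2 of Polycomb repressive complex 2 (PRC2), and Cbx7, Cbx2, Cbx8 and Bmi1 of Polycomb repressive complex 1 (PRC1). They were chosen by gene symbol alone, and each matched 1 entry. All 9 passed the filter on low values that left 18002 genes for testing. The question was how the level of each subunit gene, and the balance between alternative subunits, differed between Daxx-null and wild-type cells in each culture.

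RNA was sequenced from 18 libraries of E14Tg2a, a mouse embryonic stem cell line, 3 for each of 6 groups. Daxx is a chaperone that places the histone variant H3.3 into chromatin together with Atrx. The Daxx-null cells carried a knockout of Daxx, and the wild-type cells were of the same line. Neither the number of knockout clones nor the deleted part of the gene is given in the sources used here. In the 2i groups both genotypes were grown in 2i medium, which holds inhibitors of the kinases Mek and Gsk3, with 100 µg/mL vitamin C. In the retinoic acid groups they were kept 24 h without leukaemia inhibitory factor (LIF) and then 4 days in 10 µM retinoic acid, still without LIF. In the serum groups they were grown in serum with 1000 units/mL LIF. Serum is the culture against which 2i and retinoic acid are set below.

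PRC2 places methyl groups on lysine 27 of histone H3. Ezh2 or its paralogue Ezh1 is the catalytic subunit, Eed binds the methylated histone and stimulates the enzyme, Suz12 is the scaffold, and Jarid2 is an accessory subunit that helps to bring the complex to its targets. Canonical PRC1 reads the mark through 1 of several Cbx proteins, and the Pcgf subunit, Bmi1 (also called Pcgf4) or Pcgf2, joins the Ring1 or Rnf2 ubiquitin ligase core. In mouse embryonic stem cells Cbx7 is known as the main Cbx protein of PRC1, and Cbx2 and Cbx8 are known to replace it during differentiation. Ezh2 is known as the form of dividing cells, while Ezh1 also serves cells that have stopped dividing.

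The promoters of 8 of the 9 genes were found among the RefSeq promoters of build GRCm38.p6, which run from 250 bases before to 50 bases after the annotated start. Cbx2 was the other gene. Jarid2 had 2 such windows, and the first is shown; the other, at chr13:44731021-44731320, had a GC content of 62.7% and also held 1 CCAAT box. The sequences of 5 are shown, written 5′ to 3′ along the gene. Eed and Jarid2 are shown because both were higher in Daxx-null cells in serum, Cbx8 and Bmi1 because both rose in 2i and in retinoic acid, and Ezh2 because its level varied least. Capitals mark matches to the motifs searched, on either strand.
Eed promoter, chr7:89980927-89981226, minus strand: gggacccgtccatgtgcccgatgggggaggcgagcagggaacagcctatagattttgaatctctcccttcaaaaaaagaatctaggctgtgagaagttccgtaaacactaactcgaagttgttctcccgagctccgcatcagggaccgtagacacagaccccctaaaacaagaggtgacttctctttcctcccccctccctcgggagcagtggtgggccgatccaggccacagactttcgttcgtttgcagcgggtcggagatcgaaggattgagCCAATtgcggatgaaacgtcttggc
Jarid2 promoter, chr13:44730524-44730823, plus strand: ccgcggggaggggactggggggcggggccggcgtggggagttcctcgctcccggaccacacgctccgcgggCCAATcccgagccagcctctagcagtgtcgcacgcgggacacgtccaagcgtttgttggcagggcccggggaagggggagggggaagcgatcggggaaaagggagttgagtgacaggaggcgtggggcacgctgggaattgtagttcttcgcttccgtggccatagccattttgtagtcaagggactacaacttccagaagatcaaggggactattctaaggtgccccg
Cbx8 promoter, chr11:119040864-119041163, minus strand: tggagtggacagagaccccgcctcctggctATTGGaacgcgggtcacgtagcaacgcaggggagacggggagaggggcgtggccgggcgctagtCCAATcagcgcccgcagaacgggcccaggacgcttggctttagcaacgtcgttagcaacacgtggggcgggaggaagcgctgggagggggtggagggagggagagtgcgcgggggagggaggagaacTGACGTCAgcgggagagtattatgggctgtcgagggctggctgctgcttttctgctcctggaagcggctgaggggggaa
Bmi1 promoter, chr2:18676768-18677067, plus strand: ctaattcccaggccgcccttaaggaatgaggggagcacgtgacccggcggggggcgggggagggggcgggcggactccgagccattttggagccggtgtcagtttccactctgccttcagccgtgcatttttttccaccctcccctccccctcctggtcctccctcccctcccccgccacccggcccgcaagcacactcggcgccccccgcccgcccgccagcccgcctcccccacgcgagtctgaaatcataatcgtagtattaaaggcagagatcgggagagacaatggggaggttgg
Ezh2 promoter, chr6:47594981-47595280, minus strand: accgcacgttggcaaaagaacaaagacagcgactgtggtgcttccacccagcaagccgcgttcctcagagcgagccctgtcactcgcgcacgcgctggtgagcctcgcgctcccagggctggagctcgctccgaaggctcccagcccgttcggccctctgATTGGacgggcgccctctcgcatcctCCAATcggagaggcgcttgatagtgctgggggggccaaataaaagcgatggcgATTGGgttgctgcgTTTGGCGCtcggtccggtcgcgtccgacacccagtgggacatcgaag
There were 8 motifs, namely TTTCCCGC and TTTGGCGC (E2F), AGGTCA (the core of a retinoic acid receptor site), TGACGTCA (CREB), CCAAT (the CCAAT box), CCGGAAGT (ETS) and 1 longer sequence each for NRF1 and YY1, and no match overlapped a match to another. The Ezh2 window held TTTGGCGC, found in 0.514% of 32851 promoters of the same length, and 3 CCAAT boxes. The Cbx8 window held TGACGTCA, found in 1.79% of promoters, and 2 CCAAT boxes. A CCAAT box occurred in 37.4% of all promoters and also in the windows of Eed and Jarid2. Bmi1 matched none of the letters searched. The window of Suz12, not shown, held TTTCCCGC, found in 1.07% of promoters. GC content was 54.7% for Eed, 64.3% for Jarid2, 66.0% for Cbx8, 66.3% for Bmi1 and 64.3% for Ezh2, against a median of 52.7% over all promoters.

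Levels are the authors' FPKM. Judged by the steps between low values, they are about 10 times conventional ones. Depth in gene exons ranged from 51.1 to 82.4 M counting units per library, where M stands for mega. Daxx itself had 54.4, 56.0 and 57.6 FPKM in Daxx-null cells in 2i, against 434, 423 and 402 FPKM in wild type. In retinoic acid it had 62.7, 61.7 and 60.8 FPKM in Daxx-null cells against 238, 242 and 265 FPKM in wild type, and in serum 68.7, 72.2 and 73.7 FPKM against 307, 319 and 353 FPKM. Stem cell markers (8 of 8 detected in every group) summed to 10034 to 19153 FPKM in Daxx-null and 22605 to 24636 FPKM in wild-type cells in 2i. Their sums were 570.5 to 936.5 FPKM and 625.3 to 809.2 FPKM in retinoic acid, and 25039 to 31036 FPKM and 23082 to 24260 FPKM in serum. Most of the retinoic acid sum was Sox2 alone. Its mean was 725.3 FPKM in Daxx-null cells (sum 782.2 FPKM) and 508.1 FPKM in wild type (sum 703.5 FPKM). Pou5f1 had 3.29 and 35.4 FPKM there, and Nanog 1.165 and 4.19 FPKM. In 2i 1 library of each genotype stood apart. Daxx-null replicate 2 differed over 2-fold from the mean of its other two replicates at 15.6% of tested genes and wild-type replicate 3 at 15.4%, against 1.48 to 10.2% in the other 16 libraries. The neural marker sum was 297.2, 2280 and 275.3 FPKM in Daxx-null 2i replicates 1, 2 and 3, so replicate 2 alone was high. It was 524.7 to 676.7 FPKM in wild-type 2i libraries. Daxx-null replicate 2 also had the lowest stem cell marker sum in 2i (10034 FPKM). The Y-linked genes Eif2s3y, Uty and Ddx3y summed to 1.20 to 2.68 FPKM in Daxx-null cells in retinoic acid and serum, but to 173.2 to 236.5 FPKM in Daxx-null cells in 2i and 155.5 to 349.4 FPKM in wild type. Daxx-null cells in serum and retinoic acid thus differed in this RNA both from Daxx-null cells in 2i and from wild type. The effect of 2i in Daxx-null cells, and the effect of genotype in serum and retinoic acid, cannot be told apart from that difference. The deposited samples are bulk RNA, so fewer cells of a type and less RNA per cell cannot be told apart.

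**Figure D1:**
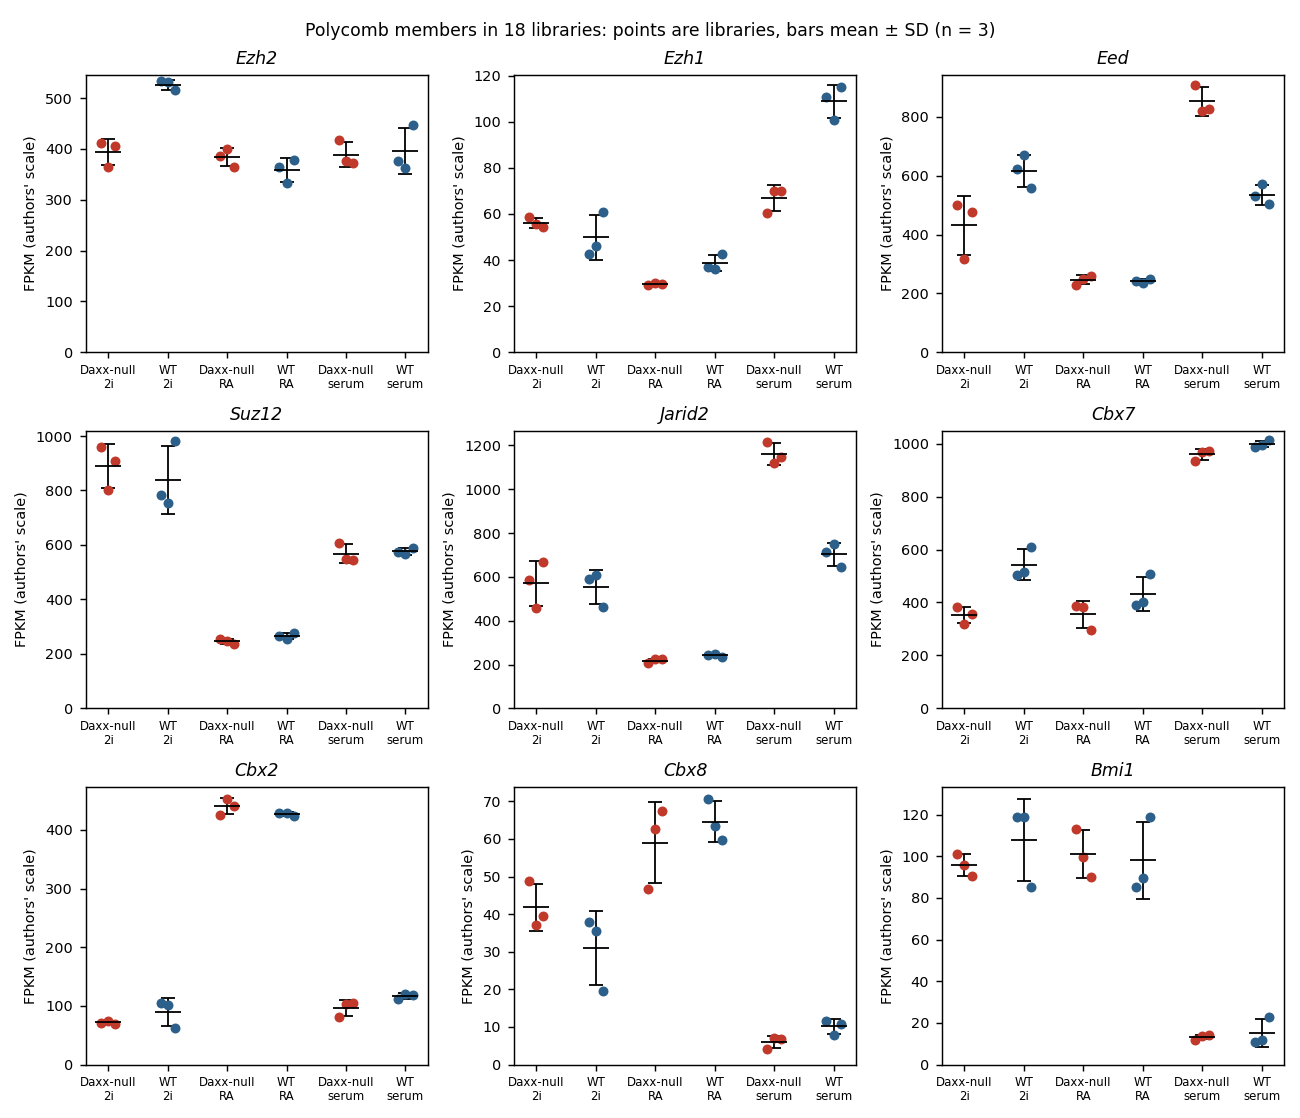
FPKM (authors' scale, linear axes from 0) of the 9 Polycomb genes in each library of the 6 groups, with Daxx-null libraries in red and wild-type libraries in blue. Bars give the mean ± SD (n = 3). Cbx2 stands above 420 FPKM in all 6 retinoic acid libraries, Cbx8 and Bmi1 are lowest in serum, and Eed and Jarid2 are highest in Daxx-null cells in serum.

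Among the 9 genes, 4 passed the test between genotypes in serum, where 28.2% of all tested genes did. Of these, 2 were higher in Daxx-null cells (9.29% of tested genes were) and 2 lower (18.9%). In 2i 3 passed, where 46.8% of tested genes did, and all 3 were lower in Daxx-null cells (15.3%; 31.5% of tested genes were higher). In retinoic acid 0 of 9 passed with limma, where 2.49% of tested genes did (0.222% higher and 2.27% lower), and Ezh1 and Cbx7 alone had an unadjusted p under 0.05 (0.0071 and 0.028). The threshold was an adjusted p (Benjamini-Hochberg, over all tested genes) under 0.05. The median log2 fold change of all tested genes was itself -0.12 in serum, 0.20 in 2i and -0.05 in retinoic acid, so a member's value is read against that shift. Without the 2 libraries that stood apart, 6 of 9 passed in 2i, 5 in serum and 1 in retinoic acid. Of the 18002 tested genes, 4684 were then higher and 2669 lower in 2i (5671 and 2760 with all libraries). In serum 2490 were higher and 5026 lower (1672 and 3406 with all libraries). In retinoic acid these were 225 and 872 (40 and 408 with all libraries). Culture moved more members. In 2i relative to serum 7 of 9 passed in Daxx-null cells (63.6% of tested genes), with 3 higher (41.8%) and 4 lower (21.8%). In wild type 8 of 9 passed (49.5%), with 4 higher (24.7%) and 4 lower (24.8%). In retinoic acid relative to serum 8 of 9 passed in Daxx-null cells (66.1%), with 3 higher (33%) and 5 lower (33.1%). In wild type 8 of 9 passed as well (64.5%), with 3 higher (30.4%) and 5 lower (34.1%). The 8 genes called in retinoic acid had the same direction in both genotypes. The share of all tested genes that did so was not computed, so this agreement is not read as particular to the members. The retinoic acid comparisons of the genotypes share no libraries, but the comparisons of 1 genotype share its serum libraries. The genotype effect in 2i differed from that in serum at 6 of 9 members (43.1% of tested genes), with 2 more positive (31.5%) and 4 more negative (11.5%). The effect in retinoic acid differed from that in serum at 2 of 9 (8.19% of tested genes), with 0 more positive (4.82%) and 2 more negative (3.38%).

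**Figure D2:**
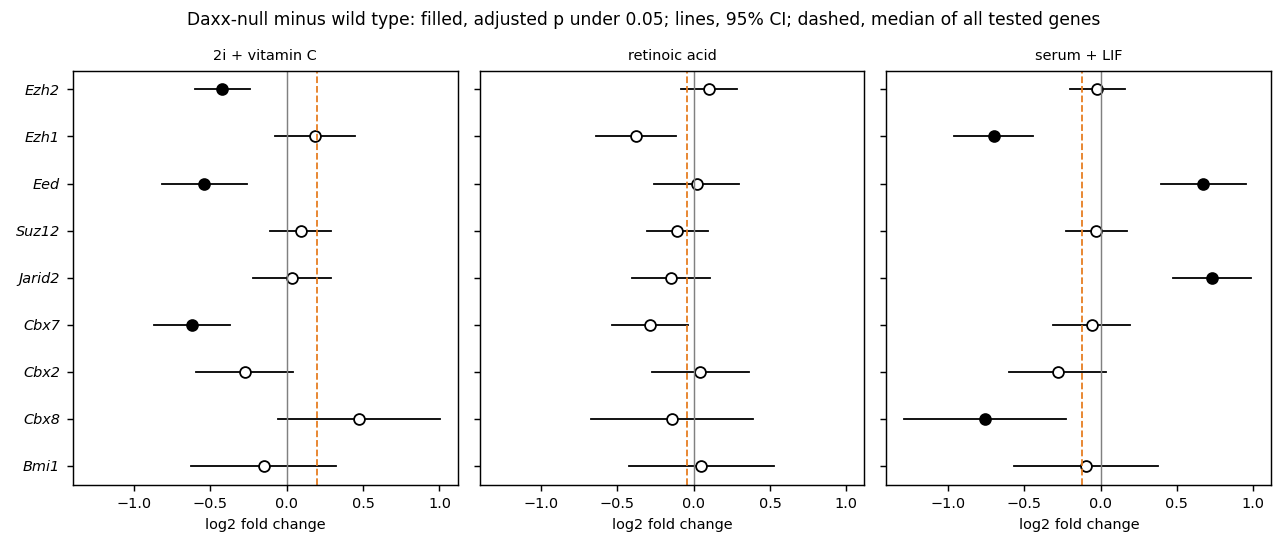
Log2 fold change of Daxx-null over wild-type cells (x axis) for the 9 genes (y axis) in 2i, retinoic acid and serum. Lines are 95% confidence intervals from the limma fit, filled points passed the test, and the dashed line is the median of all tested genes. Eed lies on opposite sides of 0 in 2i (-0.54) and serum (0.67), and no point is filled in retinoic acid.

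Ezh2, the main PRC2 methyltransferase of dividing cells, was the steadiest of the 9 genes, and its highest and lowest group means differed by 1.47 times. The entry NM_001146689 lies on chromosome 6 at chr6:47480273-47545029 of mm9, on the minus strand. In 2i it had 411, 364 and 406 FPKM in Daxx-null cells against 533, 531 and 515 FPKM in wild type. In retinoic acid the values were 387, 400 and 365 FPKM in Daxx-null cells against 364, 333 and 378 FPKM in wild type. In serum they were 417, 376 and 372 FPKM in Daxx-null cells against 376, 363 and 447 FPKM in wild type. The 3 wild-type 2i libraries lay above the other 15, and the other 5 groups overlapped in order of their means. Ezh2 was lower in Daxx-null cells in 2i (log2 fold change -0.42 ± 0.09 SE, adjusted p = 0.00094), and its value was 0.10 ± 0.09 in retinoic acid and -0.02 ± 0.09 in serum, neither called. Without the 2 libraries that stood apart the 2i value was -0.38 (adjusted p = 0.0068). The genotype effect in 2i differed from that in serum (difference -0.40 ± 0.12, adjusted p = 0.015), a call that was lost with quantile normalization (-0.26, adjusted p = 0.071).

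In wild type Ezh2 rose in 2i (0.42 ± 0.09, adjusted p = 0.00076), and in Daxx-null cells its value was 0.02 ± 0.09. The genes of chromosome 6, 882 of them tested, had a median log2 fold change of 0.37 in 2i in wild type, where the median of all genes was -0.02. With the median shift of each chromosome removed from each library, Ezh2 was at 0.08 in wild type and no longer called (adjusted p = 0.53). In Daxx-null cells it then turned to -0.46 (adjusted p = 0.00051). The genotype effect of Ezh2 in 2i remained called under that setting (-0.32, adjusted p = 0.011). Retinoic acid left Ezh2 uncalled in Daxx-null cells (-0.015 ± 0.09) and in wild type (-0.14 ± 0.09). With quantile normalization and with the authors' normalised table the value in Daxx-null cells turned to 0.19 and was called (adjusted p = 0.036 in both). The 95% interval of the retinoic acid effect in wild type reached from -0.32 to 0.04.

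Ezh1, the paralogue with the weaker methyltransferase activity, was highest in wild-type serum and lowest in retinoic acid. Its entry NM_007970 lies at chr11:101052429-101087777 of mm9. In 2i it had 58.5, 55.8 and 54.3 FPKM in Daxx-null cells against 42.6, 46.2 and 60.9 FPKM in wild type. In retinoic acid it had 29.1, 30 and 29.6 FPKM in Daxx-null cells against 36.9, 36.3 and 42.6 FPKM in wild type. In serum it had 60.5, 70.1 and 70.2 FPKM in Daxx-null cells against 111, 101 and 115 FPKM in wild type. The genotypes did not overlap in serum or retinoic acid, with Daxx-null cells lower in both, and they overlapped in 2i through wild-type replicate 3. Ezh1 was lower in Daxx-null cells in serum (-0.70 ± 0.12, adjusted p = 0.00063). Its value in retinoic acid, -0.38 ± 0.12, was not called (adjusted p = 0.15), but was without wild-type 2i replicate 3 in the shared fit (adjusted p = 0.035). In 2i it was 0.19 ± 0.12 (adjusted p = 0.23), and without that replicate 0.34 and called (adjusted p = 0.019). With quantile normalization and with the authors' normalised table the 2i value turned to -0.05 (adjusted p = 0.77 in both). The genotype effect differed between 2i and serum by 0.89 ± 0.17 (adjusted p = 0.00085). Chromosome 11, which also carries Suz12, Cbx2 and Cbx8, had a median of -0.26 between genotypes in serum, and with chromosome shifts removed Ezh1 was at -0.43 (adjusted p = 0.018).

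Ezh1 fell in both media relative to serum in wild type. The log2 fold change was -1.13 ± 0.12 in 2i (adjusted p = 1.8e-06) and -1.49 ± 0.12 in retinoic acid (adjusted p = 3.2e-08). In Daxx-null cells it fell in retinoic acid (-1.16 ± 0.12, adjusted p = 4.5e-07) and was not called in 2i (-0.25 ± 0.12, adjusted p = 0.087), where it became called with median-ratio scaling (-0.46, adjusted p = 0.0058) and without wild-type 2i replicate 3 (adjusted p = 0.028). In all 18 libraries Ezh1 had a lower FPKM than Ezh2. As a share of summed Ezh1 and Ezh2 FPKM it made up 12.5 ± 0.744% in Daxx-null and 8.66 ± 1.69% in wild-type cells in 2i (SD, n = 3 each). The share was 7.15 ± 0.290% in Daxx-null and 9.72 ± 0.478% in wild-type cells in retinoic acid, and 14.8 ± 1.80% and 21.7 ± 1.14% in serum.

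Eed, the subunit that reads H3K27 methylation, was the member whose genotype difference turned round between cultures. The entry NM_021876 lies at chr7:97103164-97129486 of mm9. The 2i libraries had 502, 316 and 475 FPKM in Daxx-null cells against 622, 669 and 559 FPKM in wild type. The retinoic acid libraries had 230, 249 and 259 FPKM in Daxx-null cells against 242, 236 and 249 FPKM in wild type. The serum libraries had 910, 821 and 828 FPKM in Daxx-null cells against 531, 571 and 503 FPKM in wild type. All 3 Daxx-null libraries lay below wild type in 2i and above it in serum, while the genotypes overlapped in retinoic acid. Eed was higher in Daxx-null cells in serum (0.67 ± 0.13, adjusted p = 0.0014) and lower in 2i (-0.54 ± 0.13, adjusted p = 0.0033), with 0.02 ± 0.13 in retinoic acid. The 2i call rests on the spread shared by all groups, since a fit of the 2i libraries alone gave adjusted p = 0.089. Without both 2i libraries that stood apart the value was -0.40 (adjusted p = 0.0017). The effect in 2i minus that in serum was -1.21 ± 0.19 (adjusted p = 0.00013), the most negative such value among the members. The effect in retinoic acid minus that in serum was -0.65 ± 0.19 (adjusted p = 0.041). This last call was lost without any 1 of the 12 retinoic acid and serum libraries or wild-type 2i replicate 1 (adjusted p 0.053 to 0.097).

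Relative to serum, Eed fell in retinoic acid in both genotypes, by -1.79 ± 0.13 in Daxx-null cells (adjusted p = 7.2e-09) and -1.14 ± 0.13 in wild type (adjusted p = 1.4e-06). In 2i it fell in Daxx-null cells (-1.01 ± 0.13, adjusted p = 5.9e-06), whereas in wild type it was at 0.20 ± 0.13 and not called (adjusted p = 0.21). Without both libraries that stood apart the wild-type value was 0.27 and called (adjusted p = 0.0071), and it was called at 0.20 without Daxx-null 2i replicate 2 alone (adjusted p = 0.037). The retinoic acid levels of the genotypes overlapped, at 246 ± 14.8 FPKM in Daxx-null and 242 ± 6.67 FPKM in wild-type cells (SD, n = 3 each).

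Suz12, the PRC2 scaffold, followed culture and showed no genotype difference that was called in the main fit of all 18 libraries. The entry NM_001163018 lies at chr11:79806608-79847625 of mm9, on the plus strand. Suz12 in 2i had 960, 803 and 908 FPKM in Daxx-null cells against 782, 754 and 982 FPKM in wild type. Suz12 in retinoic acid had 256, 246 and 235 FPKM in Daxx-null cells against 266, 253 and 275 FPKM in wild type. Suz12 in serum had 607, 548 and 546 FPKM in Daxx-null cells against 574, 566 and 590 FPKM in wild type. The 3 cultures were apart in both genotypes, with 2i highest and retinoic acid lowest. Suz12 rose in 2i in Daxx-null cells (0.65 ± 0.09, adjusted p = 1.9e-05) and in wild type (0.53 ± 0.09, adjusted p = 0.00024). It fell in retinoic acid in Daxx-null cells (-1.20 ± 0.09, adjusted p = 1.6e-08) and in wild type (-1.12 ± 0.09, adjusted p = 4.2e-08). The genotype difference was 0.09 in 2i (95% interval -0.11 to 0.29), -0.11 in retinoic acid (-0.31 to 0.10) and -0.03 in serum (-0.23 to 0.17). The 2i value depended on the setting. It was called at 0.28 without the 2 libraries that stood apart (adjusted p = 0.0077) and at 0.21 with quantile normalization and with the authors' normalised table (adjusted p = 0.039 in both), and it was -0.06 with median-ratio scaling (adjusted p = 0.68).

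Jarid2, an accessory PRC2 subunit, was the most abundant of the 9 transcripts in Daxx-null serum and had the widest span of the PRC2 genes, 5.33 times between its highest and lowest group means. The entry NM_001205044 lies at chr13:44826143-45017012 of mm9. In 2i it had 584, 459 and 667 FPKM in Daxx-null cells against 590, 608 and 463 FPKM in wild type. In retinoic acid it had 209, 223 and 223 FPKM in Daxx-null cells against 245, 246 and 233 FPKM in wild type. In serum it had 1217, 1122 and 1148 FPKM in Daxx-null cells against 713, 751 and 644 FPKM in wild type. Daxx-null serum libraries stood above all others, the genotypes overlapped in 2i, and Daxx-null libraries lay just below wild type in retinoic acid. Jarid2 was higher in Daxx-null cells in serum (0.73 ± 0.12, adjusted p = 0.00043), with 0.03 ± 0.12 in 2i and -0.15 ± 0.12 in retinoic acid, neither called. Both differences from the serum effect were called, at -0.69 ± 0.17 for 2i (adjusted p = 0.0043) and -0.88 ± 0.17 for retinoic acid (adjusted p = 0.0055).

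Jarid2 fell in retinoic acid in Daxx-null cells (-2.41 ± 0.12, adjusted p = 8.1e-11) and in wild type (-1.54 ± 0.12, adjusted p = 1.9e-08). In 2i it fell in Daxx-null cells (-1.04 ± 0.12, adjusted p = 1.6e-06) and by less in wild type (-0.35 ± 0.12, adjusted p = 0.024). That wild-type call was lost without 2i replicate 3 (-0.23, adjusted p = 0.12), without serum replicate 1 (adjusted p = 0.064) and without serum replicate 2 (adjusted p = 0.09). It was also lost in a fit of the wild-type 2i and serum libraries alone (adjusted p = 0.055). In serum the genotypes of the PRC2 genes differed at Eed and Jarid2 (higher in Daxx-null) and at Ezh1 (lower), while the intervals of Ezh2 (-0.20 to 0.16) and Suz12 (-0.23 to 0.17) included 0.

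**Figure D3:**
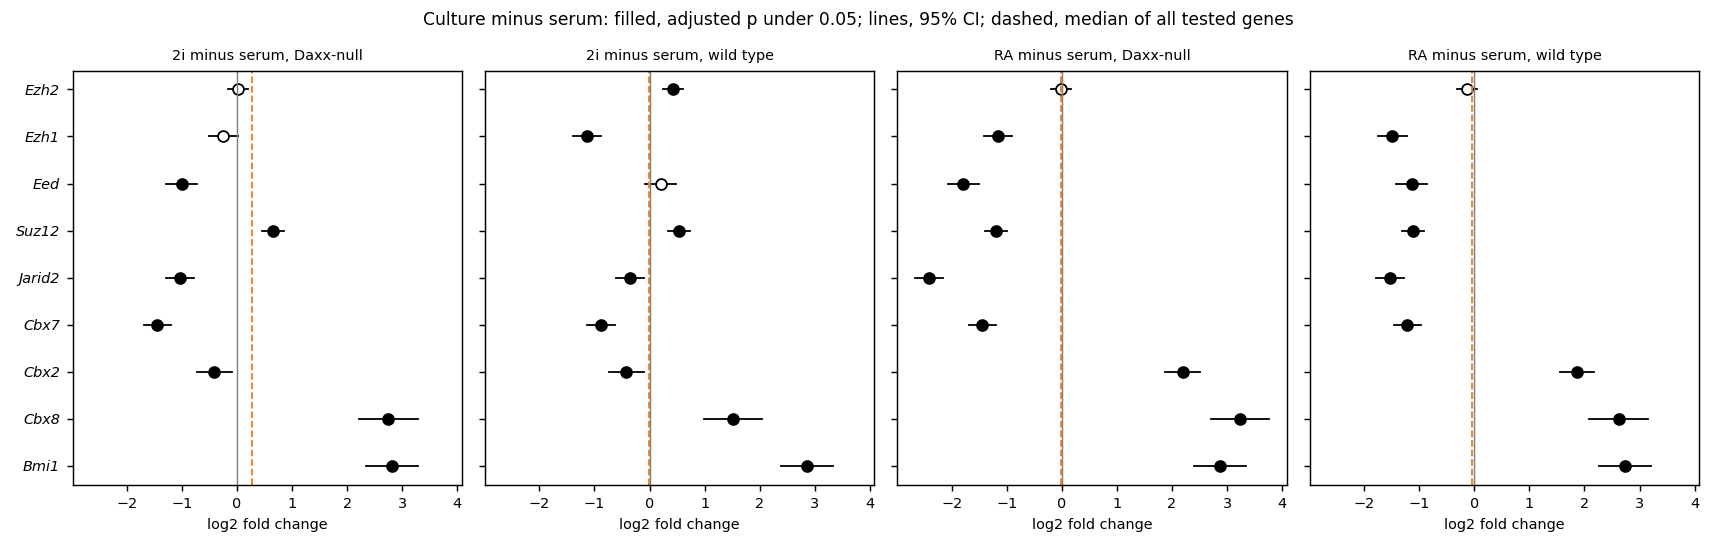
Log2 fold change of 2i over serum and of retinoic acid over serum (x axis) for the 9 genes (y axis), with Daxx-null cells left of wild type in each pair. Lines are 95% confidence intervals, filled points passed the test, and the dashed line is the median of all tested genes. Bmi1 and Cbx8 lie right of 1 in all 4 panels and Cbx7 left of 0, while Cbx2 lies left of 0 in 2i and right of 1 in retinoic acid.

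Cbx7, the main PRC1 chromodomain gene of stem cells, was the most abundant Cbx transcript outside retinoic acid. The entry NM_144811 lies at chr15:79746237-79763076 of mm9. The 2i libraries had 381, 319 and 358 FPKM in Daxx-null cells against 502, 515 and 611 FPKM in wild type. The retinoic acid libraries had 388, 381 and 296 FPKM in Daxx-null cells against 390, 400 and 508 FPKM in wild type. The serum libraries had 936, 970 and 973 FPKM in Daxx-null cells against 988, 996 and 1013 FPKM in wild type. Every Daxx-null library lay below every wild-type library of its culture, by a wide margin in 2i and a narrow one in the other two cultures. The share of all tested genes separated in this way was not computed. Cbx7 was lower in Daxx-null cells in 2i (-0.62 ± 0.12, adjusted p = 0.00057). The values in retinoic acid (-0.29 ± 0.12, adjusted p = 0.30) and serum (-0.06 ± 0.12, adjusted p = 0.77) were not called. The serum value was nearer to no change than the median of all tested genes (-0.12). It turned to 0.05 with median-ratio scaling and to 0.10 with chromosome shifts removed, neither called. Without the 2 libraries that stood apart the 2i value was -0.46 (adjusted p = 0.011). The effect in 2i minus that in serum was -0.56 ± 0.17 (adjusted p = 0.013), and this difference was lost without the 2 libraries that stood apart (-0.40, adjusted p = 0.062) and with quantile normalization (-0.36, adjusted p = 0.091).

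Cbx7 fell in both media in both genotypes. In 2i the change was -1.45 ± 0.12 in Daxx-null cells (adjusted p = 3.6e-08) and -0.89 ± 0.12 in wild type (adjusted p = 1.6e-05). Under retinoic acid the change was -1.44 ± 0.12 in Daxx-null cells (adjusted p = 2.5e-08) and -1.22 ± 0.12 in wild type (adjusted p = 2.2e-07). In retinoic acid its mean was 355 ± 51.7 FPKM in Daxx-null and 433 ± 65.7 FPKM in wild-type cells (SD, n = 3 each).

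Cbx2, a chromodomain subunit that also compacts chromatin, rose in retinoic acid to the level of Cbx7. The entry NM_007623 lies at chr11:118884335-118892589 of mm9, close to Cbx8. Cbx2 in 2i had 71.6, 74.2 and 69.9 FPKM in Daxx-null cells against 105, 101 and 62.0 FPKM in wild type. Cbx2 in retinoic acid had 426, 453 and 441 FPKM in Daxx-null cells against 428, 429 and 423 FPKM in wild type. Cbx2 in serum had 81.6, 103 and 105 FPKM in Daxx-null cells against 111, 121 and 118 FPKM in wild type. The 6 retinoic acid libraries stood far above the other 12, and the genotypes were apart in serum. The rise in retinoic acid was 2.19 ± 0.15 in Daxx-null cells (adjusted p = 3.0e-09) and 1.87 ± 0.15 in wild type (adjusted p = 2.3e-08). In 2i Cbx2 fell in Daxx-null cells (-0.41 ± 0.15, adjusted p = 0.023) and in wild type (-0.42 ± 0.15, adjusted p = 0.028).

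Both 2i calls of Cbx2 were fragile. In wild type the value was -0.17 without 2i replicate 3 (adjusted p = 0.13), and the call was also lost without serum replicate 2 (adjusted p = 0.081) or serum replicate 3 (adjusted p = 0.065). A fit of the wild-type 2i and serum libraries alone gave adjusted p = 0.14. In Daxx-null cells the call was lost without serum replicate 2 (adjusted p = 0.081), serum replicate 3 (adjusted p = 0.086) or 2i replicate 3 (adjusted p = 0.059). In the main fit of all 18 libraries no genotype difference of Cbx2 was called, at -0.28 ± 0.15 in 2i, 0.04 ± 0.15 in retinoic acid and -0.28 ± 0.15 in serum. In 2i it was called lower in Daxx-null cells under each other scaling. With quantile normalization the difference was -0.43 (adjusted p = 0.012). The authors' normalised table gave the same (-0.43, adjusted p = 0.012), being itself quantile-normalised and so not a separate scaling. The difference was -0.43 with median-ratio scaling (adjusted p = 0.012) and -0.37 with chromosome shifts removed (adjusted p = 0.029). Without wild-type 2i replicate 3 it was also called in 2i (-0.52, adjusted p = 0.00056), and in serum (-0.28, adjusted p = 0.017).

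Cbx8 was the least abundant member in serum, and its entry NM_013926 lies at chr11:118899750-118902227 of mm9. In 2i it had 48.7, 37.1 and 39.5 FPKM in Daxx-null cells against 37.9, 35.4 and 19.6 FPKM in wild type. In retinoic acid it had 46.8, 62.6 and 67.5 FPKM in Daxx-null cells against 70.5, 63.4 and 59.8 FPKM in wild type. In serum it had 4.07, 6.96 and 6.66 FPKM in Daxx-null cells against 11.7, 7.95 and 10.9 FPKM in wild type, which is 62 to 122 and 101 to 140 counting units. Both other cultures lay above serum in every library, and the genotypes overlapped except in serum. Cbx8 rose in 2i by 2.75 ± 0.25 in Daxx-null cells (adjusted p = 1.2e-07) and 1.52 ± 0.25 in wild type (adjusted p = 0.00012). Under retinoic acid the rise was 3.23 ± 0.25 in Daxx-null cells (adjusted p = 1.4e-08) and 2.62 ± 0.25 in wild type (adjusted p = 1.8e-07). It was lower in Daxx-null cells in serum (-0.76 ± 0.25, adjusted p = 0.034). That call was lost with a pseudocount of 5 (adjusted p = 0.089), with quantile normalization (-0.35, adjusted p = 0.31), with chromosome shifts removed (adjusted p = 0.14) and in a fit of the serum libraries alone (adjusted p = 0.069). It was also lost without Daxx-null serum replicate 1 (adjusted p = 0.17), wild-type serum replicate 1 (adjusted p = 0.12) or wild-type serum replicate 3 (adjusted p = 0.10). The genotype effect in 2i was 0.47 ± 0.25 and not called (adjusted p = 0.13), and its difference from the serum effect was 1.23 ± 0.35 (adjusted p = 0.011). With quantile normalization that difference was 0.44 and not called (adjusted p = 0.32).

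Bmi1, a Pcgf subunit known for its part in stem cell maintenance, rose in both media to much the same level. The entry NM_007552 lies at chr2:18598645-18608256 of mm9. The 2i libraries had 101, 95.7 and 90.5 FPKM in Daxx-null cells against 119, 119 and 85.0 FPKM in wild type. The retinoic acid libraries had 113, 99.8 and 89.9 FPKM in Daxx-null cells against 85.4, 89.5 and 119 FPKM in wild type. The serum libraries had 11.9, 13.8 and 14 FPKM in Daxx-null cells against 10.8, 11.6 and 22.7 FPKM in wild type. The 12 libraries of 2i and retinoic acid lay between 85.0 and 119 FPKM, above every serum library, and the genotypes overlapped in each culture. In 2i the rise was 2.81 ± 0.22 in Daxx-null cells (adjusted p = 2.6e-08) and 2.86 ± 0.22 in wild type (adjusted p = 6.7e-08). Under retinoic acid it was 2.88 ± 0.22 in Daxx-null cells (adjusted p = 1.4e-08) and 2.73 ± 0.22 in wild type (adjusted p = 3.0e-08). No genotype difference was called, at -0.15 ± 0.22 in 2i, 0.05 ± 0.22 in retinoic acid and -0.10 ± 0.22 in serum. The intervals were wide, -0.62 to 0.32 in 2i for example.

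The balance between alternative subunits was followed as ratios within each library. The Cbx7 to Cbx2 ratio was 4.91 ± 0.545 in Daxx-null and 6.57 ± 2.85 in wild-type cells in 2i (SD, n = 3 each). It was 0.808 ± 0.124 and 1.015 ± 0.162 in retinoic acid, and 10.05 ± 1.23 and 8.56 ± 0.354 in serum. Cbx7 FPKM exceeded those of Cbx2 in every 2i and serum library, by 4.29 to 11.5 times, and the ratio lay between 0.671 and 1.20 in retinoic acid. The Cbx7 to Cbx8 ratio was 8.496 ± 0.627 and 19.7 ± 10.0 in 2i, 6.25 ± 1.96 and 6.78 ± 1.54 in retinoic acid, and 172 ± 50.4 and 101 ± 21.6 in serum, each time in Daxx-null and then wild-type cells. Relative to serum, every 2i and retinoic acid library had a lower Cbx7 to Cbx8 ratio in its genotype.

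The Bmi1 to Pcgf2 ratio was 0.437 ± 0.0463 in Daxx-null and 0.352 ± 0.108 in wild-type cells in 2i, 0.417 ± 0.0504 and 0.399 ± 0.0911 in retinoic acid, and 0.0505 ± 0.00802 and 0.0563 ± 0.0226 in serum. Pcgf2 itself had 222 ± 36.1 and 316 ± 49.1 FPKM in 2i, 243 ± 13.3 and 247 ± 8.96 FPKM in retinoic acid, and 265 ± 21.1 and 265 ± 11.2 FPKM in serum in the same order, so it remained the larger of the pair throughout. The Ezh1 to Ezh2 ratio was 0.143 ± 0.00973 in Daxx-null and 0.0951 ± 0.0204 in wild-type cells in 2i, 0.0770 ± 0.00337 and 0.108 ± 0.00586 in retinoic acid, and 0.173 ± 0.0245 and 0.277 ± 0.0185 in serum. It was lower in Daxx-null libraries in retinoic acid and serum and higher in 2i, with no overlap in any culture. Over 28 ratio comparisons the smallest exact two-sided permutation p that 3 against 3 libraries allow is 0.1 (0.133 after Benjamini-Hochberg adjustment), so no ratio could pass the threshold.

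**Figure D4:**
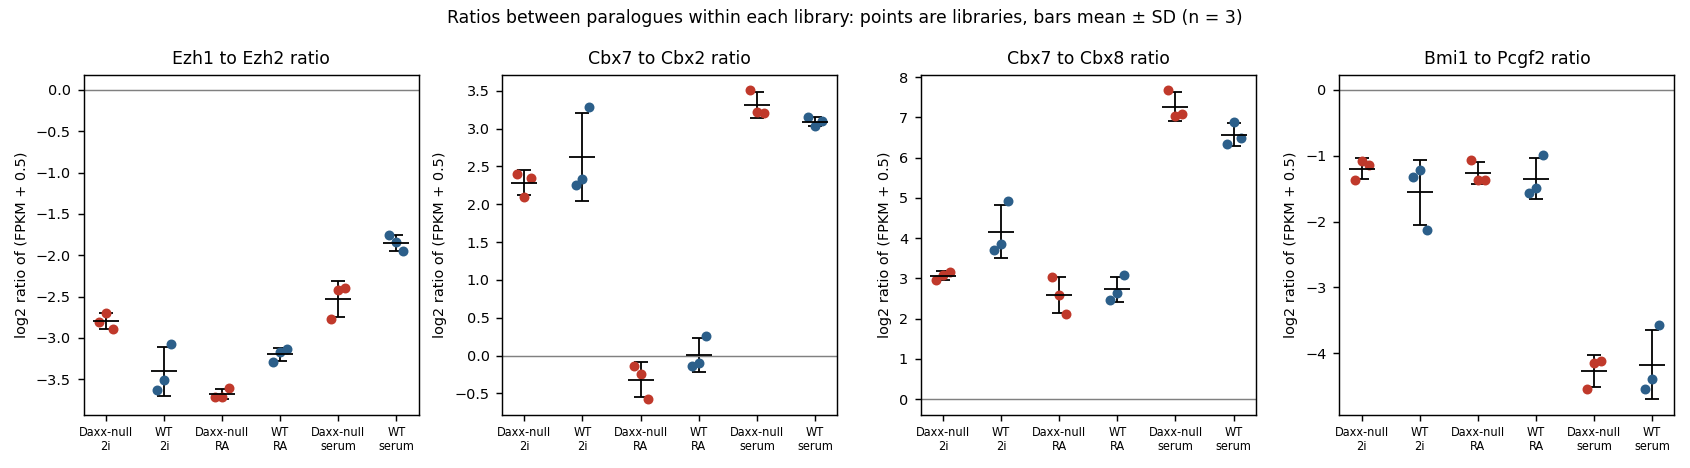
Log2 ratios of FPKM + 0.5 between paralogues in each library of the 6 groups (Daxx-null in red, wild type in blue), with the mean ± SD (n = 3). The Cbx7 to Cbx2 ratio lies near 0 in retinoic acid, the Cbx7 to Cbx8 ratio is highest in serum, and the Bmi1 to Pcgf2 ratio is lowest in serum.

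As shares of the summed FPKM of Cbx2, Cbx6, Cbx7 and Cbx8, Cbx7 made up 57.7 ± 2.75% in Daxx-null and 62.5 ± 5.38% in wild-type cells in 2i. In retinoic acid it made up 36.3 ± 4.47% and 40.7 ± 4.21%, and in serum 74.4 ± 1.86% and 73.8 ± 0.753% (SD, n = 3 each). Cbx2 made up 11.8 ± 0.968% and 10.4 ± 2.97% in 2i, 45.1 ± 1.61% and 40.4 ± 2.12% in retinoic acid, and 7.46 ± 0.677% and 8.62 ± 0.358% in serum. Cbx8 had a share of at most 6.83 ± 0.816%, in Daxx-null cells in 2i. Cbx6, which is not among the 9, made up 12.6 to 23.7% over the 6 groups. FPKM is per length of transcript, and the shares describe RNA and not protein.

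**Figure D5:**
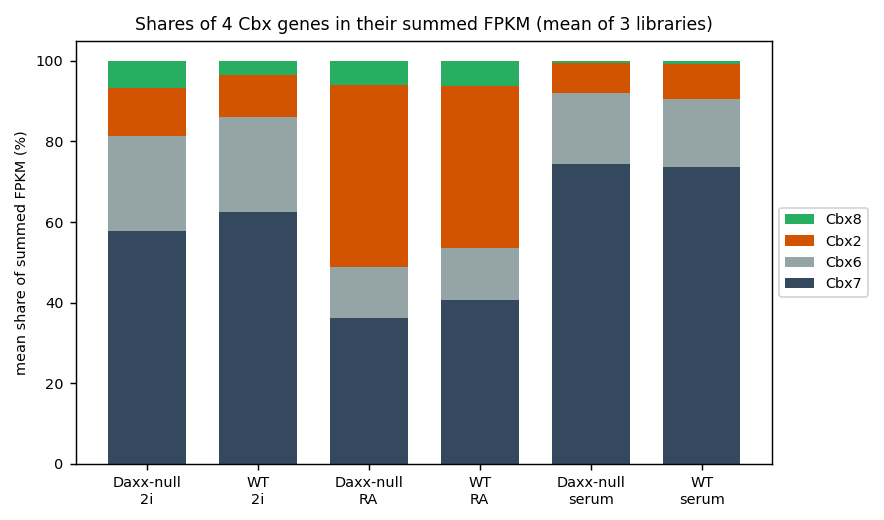
Stacked bars of the mean share (%) of Cbx7, Cbx6, Cbx2 and Cbx8 in their summed FPKM in each group (3 libraries each). Cbx2 takes 45.1% in Daxx-null and 40.4% in wild-type cells in retinoic acid, against 7.46% and 8.62% in serum.

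Of 41 other genes of Polycomb complexes or their partners, all tested, Daxx-null cells had 10 at a higher and 11 at a lower level than wild type in 2i, 1 higher and 4 lower in retinoic acid, and 6 higher and 11 lower in serum. As shares of the list these are 24.4% higher and 26.8% lower in 2i (31.5% and 15.3% of all tested genes), 2.44% and 9.76% in retinoic acid (0.222% and 2.27%), and 14.6% and 26.8% in serum (9.29% and 18.9%). Their median log2 fold changes were 0.16, -0.03 and -0.12, beside 0.20, -0.05 and -0.12 over all tested genes. The split in 2i and serum moved with the scaling, to 6 higher and 13 lower in 2i and 11 higher and 7 lower in serum with median-ratio scaling. Epop (E130012A19Rik in the files), a PRC2 partner, was lower in Daxx-null cells in 2i (715 ± 127 against 1243 ± 179 FPKM, adjusted p = 0.001) and higher in serum (2425 ± 514 against 1262 ± 117 FPKM, adjusted p = 0.00075), as Eed was. Rnf2, the main ubiquitin ligase of PRC1, was higher in Daxx-null cells in retinoic acid (0.42 ± 0.08, adjusted p = 0.0062) and in serum (0.43 ± 0.08, adjusted p = 0.00085). Phc1, a PRC1 subunit that forms polymers, was lower in Daxx-null cells in 2i (196 ± 9.39 against 625 ± 169 FPKM, -1.64 ± 0.14, adjusted p = 9.1e-07). Pcgf5 was lower in Daxx-null cells in retinoic acid (-1.05 ± 0.23, adjusted p = 0.023) and in serum (-1.19 ± 0.23, adjusted p = 0.0015).

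The same list was followed across cultures. In 2i relative to serum 17 of the 41 rose and 11 fell in Daxx-null cells, and 10 rose and 6 fell in wild type. The shares were 41.5% and 26.8% in Daxx-null cells (41.8% and 21.8% of all tested genes), and 24.4% and 14.6% in wild type (24.7% and 24.8%). With retinoic acid 20 rose and 14 fell in Daxx-null cells, and 16 rose and 16 fell in wild type. These shares were 48.8% and 34.1% in Daxx-null cells (33% and 33.1% of all tested genes), and 39% and 39% in wild type (30.4% and 34.1%). With median-ratio scaling the 2i counts in Daxx-null cells were 15 higher and 16 lower. Phc1 fell while its paralogue Phc2 rose in retinoic acid. In wild type Phc1 had 218 ± 23.7 against 1496 ± 205 FPKM in serum (-2.77 ± 0.14, adjusted p = 1.2e-10), and Phc2 had 628 ± 46.5 against 147 ± 8.64 FPKM (2.09 ± 0.15, adjusted p = 9.0e-09). Yaf2, an alternative to Rybp in variant PRC1, rose in retinoic acid to 226 ± 2.78 FPKM in Daxx-null and 220 ± 9.21 FPKM in wild-type cells, against 25.4 ± 4.59 and 36.6 ± 2.80 FPKM in serum. Phf19, a PRC2 accessory subunit, fell in 2i in Daxx-null cells (-1.19 ± 0.18) and wild type (-1.84 ± 0.18), with adjusted p = 2.3e-05 and 5.2e-07. Scml2, a Polycomb partner with MBT domains, rose in 2i by 5.08 ± 0.21 in Daxx-null cells (adjusted p = 3.0e-11) and by 2.99 ± 0.21 in wild type (adjusted p = 2.3e-08).

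Of 39 genes known as Polycomb targets in stem cells, 37 were tested. In 2i 15 passed the test, all higher in Daxx-null cells. They are 40.5% of the list, where 31.5% of all tested genes were higher and 46.8% passed in either direction. The list had a median log2 fold change of 1.25 beside 0.20 for all genes. In retinoic acid 1 passed, lower in Daxx-null cells, which is 2.7% of the list (2.27% of all tested genes; median -0.05, as for all genes). In serum 2 were higher and 10 lower, or 5.41% and 27% of the list (9.29% and 18.9% of all tested genes; median -0.35 beside -0.12). With quantile normalization 12 were higher and 4 lower in 2i (3722 and 4205 of all tested genes). Without the 2 libraries that stood apart 14 were higher and 1 lower (4684 and 2669 of all tested genes). Wnt6, a signalling ligand, had 86.3 ± 8.21 FPKM in Daxx-null and 8.87 ± 6.20 FPKM in wild-type cells in 2i (3.55 ± 0.45, adjusted p = 1.9e-05). Hand1, a trophoblast and mesoderm regulator, had 9.42 ± 2.30 and 1.12 ± 0.883 FPKM (2.78 ± 0.48, adjusted p = 0.00025). The trophoblast marker sum was 920.9 to 1021 FPKM in Daxx-null and 374.1 to 458.3 FPKM in wild-type cells in 2i. Most of that gap was the keratins Krt18 (mean 413.3 against 40.2 FPKM) and Krt8 (192.2 against 33.4 FPKM). Tfap2c was level between the genotypes in 2i (344.8 against 346.1 FPKM). Cdx2 (18.2 against 8.43 FPKM) and Elf5 (1.002 against 0.392 FPKM) added little, as did Hand1. The extraembryonic endoderm sum there was 393.5, 938 and 421.6 FPKM in Daxx-null replicates 1, 2 and 3. In wild type it was 198.3, 214.2 and 68.3 FPKM. Hand1, Cdx2, Gata4, Gata6, Sox17, Foxa2, Pax6 and Olig2 stand in both a marker list and the target list, and the part of such cells in the target counts was not tested. In serum Gata6 had 2.08 ± 0.348 FPKM in Daxx-null and 11.9 ± 2.45 FPKM in wild-type cells (-2.26 ± 0.21, adjusted p = 2.7e-06). Cdkn2a, a cell cycle inhibitor classically repressed by Bmi1, had 17.6 ± 2.14 and 103 ± 68.8 FPKM there (-2.33 ± 0.33, adjusted p = 0.00013), while Bmi1 was not called. In retinoic acid relative to serum 28 targets rose and 3 fell in Daxx-null cells (75.7% and 8.11%, beside 33% and 33.1% of all tested genes), and 27 rose and 6 fell in wild type (73% and 16.2%, beside 30.4% and 34.1%).

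The genes most like each member over the 18 libraries were named by Pearson's r of log2(FPKM + 0.5), as a description, since the libraries fall into 6 groups and r follows mainly the group means. Csk (r = 0.98) and Rcsd1 (0.98) were most like Cbx8. Npepps (0.98), Kcnip2 (0.97) and Acbd4 (0.96) were most like Ezh1, and Npepps and Acbd4 share its chromosome. Ezh2 had the weakest nearest patterns, Raver1 (0.92) and AU021063 (0.91). Eed was nearest to Zmym1 (0.99), Exosc5 (0.99) and Lsg1 (0.98), and Jarid2 to Dnajc21 (0.99), Nrg4 (0.99) and Exoc3l (0.98). Suz12 was nearest to C77080 (0.99), Ahsg (0.99) and Gstp2 (0.99), and Cbx2 to Ptpn13 (0.99), Pbx2 (0.99) and Ccnj (0.98). Cbx7 was nearest to Twf2 (0.97), Nup85 (0.97) and Tcf15 (0.97), and Bmi1 to Lman2 (0.98), Eloa (0.98) and Ttl (0.98). Among the members themselves, Suz12 and Cbx2 ran most opposite (r = -0.98) and Eed and Jarid2 most together (r = 0.96).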

How the data were processed

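RNA was measured in 18 bulk libraries. The labels do not say how replicates were separated, so a p-value covers only the spread between the libraries, which may be technical. Strand-specific counting is not stated, so reads of overlapping genes may be mixed. The authors deposited FPKM per gene and library, made with Bowtie2 2.2.6, HOMER 4.8, limma and build mm9 per the submitters' processing notes. They also deposited log2 values, which above the median equal log2 of quantile-normalised FPKM plus 1 and served as an alternative. Every low FPKM value was a whole multiple of 1 counting unit (within 0.1 unit), which gave the depths. Deposited repeat tables were not used.

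limma 3.58.1 (R 4.3.3) was fitted to log2(FPKM + 0.5), which understates changes of low genes. The fit held 6 group means over all 18 libraries and the 18002 genes that reached 1 FPKM in 3 or more libraries. Each gene had a single spread for all groups, so SE and p of 2i comparisons may be too small. The root mean square log2 difference of a library from its group was 0.457 to 0.975 in 2i, against 0.303 to 0.44 elsewhere. With only the groups compared, 6 of 9 members passed for 2i in wild type (8 in the main fit). Of tested genes 4124 were then higher and 4343 lower. Ratios were compared with exact permutation tests, and their p-values were adjusted with scipy 1.17.1. The method was tested on simulated data. All 9 members are named. Of the other lists, called genes with non-overlapping groups and a mean of at least 2 FPKM in the higher group were eligible, at most 4 in each direction per comparison. Some genes that this rule or the likeness to a member would name are not reported here. Members and lists were chosen with earlier results of these data known, and shares of paralogues were added after values were seen. Alternatives were pseudocounts, the filter, 3 scalings, the replicate number as a block, chromosome shifts removed, only the groups compared, and libraries left out, which kept the tested genes unchanged.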

Additional observations from a re-analysis of the deposited data

Results flagged for a closer look

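The effect of Daxx loss differed between cultures, by an interaction term in the limma fit, at 6 of 9 members for 2i against serum (43.1% of tested genes) and 2 of 9 for retinoic acid against serum (8.19%). The median of this difference over all tested genes was 0.34 for 2i and 0.05 for retinoic acid. For 2i minus serum the log2 differences were 0.886 for Ezh1, -0.399 for Ezh2, -1.213 for Eed, -0.693 for Jarid2, -0.562 for Cbx7 and 1.228 for Cbx8. For retinoic acid minus serum they were -0.653 for Eed and -0.876 for Jarid2. Since the 2i libraries of Daxx-null cells held Y-linked RNA that their serum libraries nearly lacked, culture and this difference cannot be told apart.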

How the results depend on the processing

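Of 2349 values of the members recomputed under alternatives, 2212 kept their direction and their side of the threshold, 48 kept their direction but lost a call, 26 kept it and gained one, and 63 changed sign, 3 of which passed the threshold with the new sign. The causes of these changes were not tested. The total includes fits that left out a library of neither group compared. There the log2 fold change could not change and only the spread did. It also includes the authors' table, which is the same scaling as quantile normalization. The count that kept direction and call therefore overstates how stable the values were. The count called for Daxx in 2i (3) was 5 with quantile normalization, 5 with the authors' normalised table and 6 without both 2i libraries that stood apart. It was 3 to 6 with libraries left out and 2 with only the groups compared. Of all tested genes, 5671 were higher and 2760 lower in the main fit. These were 3722 and 4205 with quantile normalization, and 3725 and 4215 with the authors' table. They were 4684 and 2669 without both libraries, and 2724 and 1205 with only the groups compared. For Daxx in retinoic acid (0) the count was 0 to 1 with libraries left out, the 1 being Ezh1. For the retinoic acid minus serum difference (2) it was 1 without the filter, 1 with the replicate block, and 1 to 2 with libraries left out. Between the genotypes of a culture, the correlations of deviations of same-numbered samples ran from -0.162 to 0.154. Same-numbered samples of different cultures were not compared. Such weak correlations cannot show whether same-numbered samples shared a preparation, which the labels do not state. The block changed the call of no other member value.

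All sign changes were at values not called in the report. The 3 that became called were Ezh2 under retinoic acid in Daxx-null cells (quantile normalization and the authors' table) and Ezh2 in 2i in Daxx-null cells (chromosome shifts removed). With quantile normalization and with the authors' table the values were 0.244 and 0.234 (Bmi1, Daxx in serum), -0.050 and -0.050 (Ezh1, Daxx in 2i), -0.007 and -0.007 (Cbx2, Daxx in retinoic acid), 0.080 and 0.080 (Ezh2, retinoic acid in wild type), 0.193 and 0.193 (Ezh2, retinoic acid in Daxx-null), -0.243 and -0.241 (Cbx2, 2i minus serum), and -0.173 and -0.163 (Bmi1, retinoic acid minus serum). With median-ratio scaling they were 0.090, 0.085, 0.053 and 0.011 for Ezh2, Suz12, Cbx7 and Bmi1 (Daxx in serum), -0.063 and -0.119 for Suz12 and Jarid2 (Daxx in 2i), -0.190 for Ezh2 (2i in Daxx-null), and -0.148 and -0.259 for Suz12 and Cbx2 (2i minus serum). With chromosome shifts removed they were 0.215, 0.243, 0.097 and 0.040 for Ezh2, Suz12, Cbx7 and Bmi1 (Daxx in serum), -0.007 and -0.183 for Suz12 and Jarid2 (Daxx in 2i), 0.075 and 0.038 for Suz12 and Cbx8 (Daxx in retinoic acid), -0.461 for Ezh2 (2i in Daxx-null), and -0.250 and -0.363 for Suz12 and Cbx2 (2i minus serum).

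With libraries left out, values ran from -0.249 to 0.013 (Cbx8), -0.041 to 0.199 (Bmi1) and -0.019 to 0.067 (Eed) for Daxx in retinoic acid, from -0.08 to 0.07 (Ezh2) and -0.287 to 0.234 (Bmi1) for Daxx in serum, and from -0.089 to 0.183 (Jarid2) for Daxx in 2i. They ran from -0.045 to 0.037 (Ezh2) for retinoic acid and -0.013 to 0.075 (Ezh2) for 2i in Daxx-null cells, from -0.262 to 0.14 (Cbx2) and -0.386 to 0.135 (Bmi1) for 2i minus serum, and from -0.184 to 0.337 (Bmi1) for retinoic acid minus serum. Of all called genes 32.9% were higher in Daxx-null cells in serum and 67.3% in 2i, against 50.6% and 47.0% with quantile normalization and 49.2% and 53.7% with median-ratio scaling. Of 336 ratio values recomputed, 36 moved by over 1 SD and 8 changed sign. Depth limits Cbx8 in serum, which had at most 140 counting units.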
